A study of Sus scrofa with 12 samples.

Results

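Molecular chaperones of the heat shock families were measured as 65 genes, out of 11905 genes with a symbol, in Day 9 pig embryos from sows under 2 mating strategies. The genes were taken by symbol: the HSP70 and HSP110, HSP90, small heat shock and mitochondrial chaperonin genes, the DNAJA, DNAJB and DNAJC genes, and the CCT subunit genes with TCP1. HSPA5 and HSP90B1, the HSP70 and HSP90 of the endoplasmic reticulum, were left out by the same rule, and HSPBP1 and HSPBAP1, which bind heat shock proteins, came in through their symbols. By family there were 10 HSP70 and HSP110 genes, 2 HSP90 genes, 6 small heat shock genes, 2 HSP-binding protein genes, 2 mitochondrial chaperonin genes, 5 CCT genes, 4 DNAJA, 11 DNAJB and 23 DNAJC genes. They were read by 102 probes, and 46 of the 65 genes had 1 probe each. HSPA1A, HSPA1B and HSPA1L, also of the HSP70 class, were not among the 65. All 65 had a value on every array, and no filter on dim probes was applied. Promoter, protein and probe sequences were not used here.

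Chaperones of the HSP70 class hold exposed hydrophobic stretches of unfolded proteins and release them in a cycle driven by ATP. J-domain proteins of the DNAJ families start that cycle and bring substrates to it, and exchange factors of the HSP110 class end it. HSP90 acts later, on kinases and receptors close to their folded form. The chaperonins are closed chambers, with HSPD1 and its lid HSPE1 in mitochondria and the CCT ring, which folds actin and tubulin, in the cytosol. Small heat shock proteins bind unfolded proteins without ATP. In mouse embryos, genes of the HSP70 class are among the first to be transcribed after fertilisation.

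FE sows were inseminated at an oestrus that had been induced during lactation, and SE (Skip-a-Heat) sows at the oestrus that came next. All were primiparous, and embryos were recovered 9 days after ovulation from 3 sows per strategy. Pools of 5 male or 5 female embryos, sexed by PCR, were made from individual sows, and each two-colour Agilent array compared 2 pools of 1 sex, FE with SE. A first and a dye-swap array made up each of 6 biological sets, 3 per sex, from the 12 arrays, and both sexes came from the same sows, so the sets were not fully independent.

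The values were log ratios of the 2 pools of an array, read here as log2 although their base is not stated, so that no level of a gene was measured and levels were not compared between genes. For the same reason the embryo label could not be checked against the levels of its marker genes, and fewer cells of a type cannot be told apart from less RNA per cell. The labels gave FE the same dye on all 12 arrays, which contradicts the dye swap they also describe. As deposited, the first and swap arrays of a set correlated at r = -0.15 to -0.77 over probes, and the sign of the swap arrays was turned before the 2 arrays were averaged. Signs follow the first arrays throughout. Whether a positive ratio stands for a higher level in FE or in SE embryos was not settled, and every sign below could be turned as a whole.

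Between FE and SE embryos of both sexes, 0 of the 65 chaperone genes passed limma's test (adjusted p from 0.736 to 0.994), as did 0% of all 37564 features, which were gene means and unnamed probes. The mean ratios were small, from -0.46 for DNAJC10 to 0.35 for DNAJC2. Their median was -0.02, against -0.01 for all named genes, and 26 were positive and 39 negative. An unadjusted p under 0.05 was found for 3 of the 65 genes, which is near the 4.96% of all named genes. The sign was the same in all 6 sets for 1 gene, DNAJC18, while 3.7% of all named genes had 1 sign in all sets. The plot of mean ratios shows the genes in order.

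**Figure D1:**
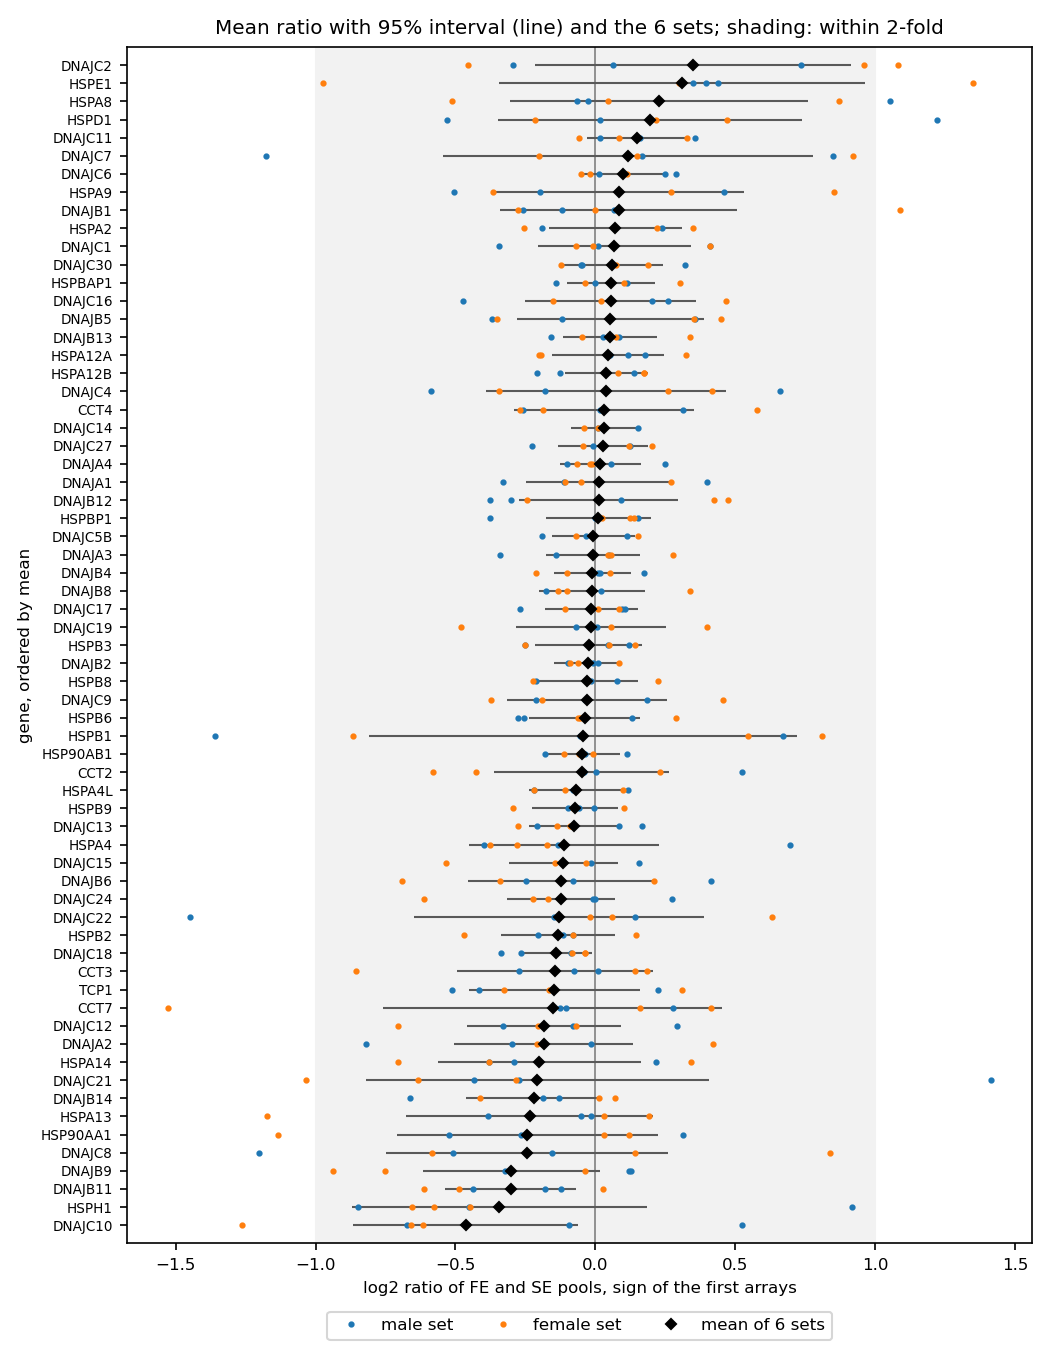
Log2 ratio of FE and SE pools for the 65 chaperone genes, ordered by mean. Dots are the 6 sets (blue male, orange female), diamonds their mean and lines limma's 95% interval. All 65 intervals lie within the shaded 2-fold range, and the dots of DNAJC21, HSPE1, HSPB1 and DNAJC7 spread the farthest.

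The 5 chaperone genes of smallest p were all J-protein genes with negative means, and none of them passed. DNAJB11, a J protein that partners HSPA5 in the lumen of the endoplasmic reticulum, had ratios of -0.12, -0.44 and -0.18 in male sets 1, 2 and 3 and of -0.61, -0.49 and 0.03 in female sets 1, 2 and 3. Female set 3 was the exception to a negative sign, and the mean was -0.30 ± 0.25 (SD, n = 6 sets; limma adjusted p = 0.736). DNAJC10, which carries a J domain and reduces disulfide bonds in the same compartment, had ratios of -0.09, -0.67 and 0.52 in the male sets, then -0.61, -0.66 and -1.26 in the female ones. Male set 3 stood opposite to the other 5 sets, and the mean was -0.46 ± 0.61 (SD, n = 6; limma adjusted p = 0.763). DNAJB9, another J protein of that compartment, had a mean of -0.30 ± 0.46, and DNAJB14, of its membrane, had -0.22 ± 0.28. The mean of DNAJB14 was -0.04 on the first arrays alone and -0.40 on the swap arrays alone. DNAJC18 had a mean of -0.14 ± 0.13, but 0.07 on the first arrays alone and -0.35 on the swap arrays alone.

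Limma's 95% interval of the mean ratio lay within a 2-fold difference for 65 of the 65 genes, as for 98.6% of all named genes, and within 1.5-fold for 50 of them, against 89% of all. Among the best known members the interval was -0.18 to 0.09 for HSP90AB1, the constitutive cytosolic HSP90, and -0.30 to 0.76 for HSPA8, the constitutive cytosolic HSP70. It was -0.81 to 0.72 for HSPB1, the small heat shock protein also called HSP27. These intervals take the sets as independent. If the swap arrays were left as deposited instead of turned, 24 of the 65 genes (36.9%) would pass in both sexes, near the 36.3% of all features. By sex, 9 (13.8%) would pass in male and 10 (15.4%) in female embryos, beside 18.4% and 14.1% of features, and 0 genes and 0% of features between sets.

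Taken by sex, again 0 of 65 genes passed in male embryos and 0 of 65 in female embryos (background 0% in both). Unadjusted p-values under 0.05 were found for 1 gene in male embryos and 4 in female embryos, beside 2.84% and 4.59% of named genes. In female embryos DNAJC10 had a mean of -0.85 ± 0.36 (SD, n = 3 sets), DNAJB9 -0.57 ± 0.47, DNAJB11 -0.36 ± 0.34, DNAJC24 -0.33 ± 0.24 and DNAJC15 -0.24 ± 0.26. When the 12 arrays entered singly, with a random block for the set, DNAJC10 passed in female embryos (limma adjusted p = 0.0452), as did 147 of all features (0.391%). With a consensus correlation of 0.21, that fit counted 2 arrays of the same pools as largely separate. In the fit of set ratios DNAJC10 had a limma adjusted p of 0.978 in female embryos. DNAJC24 serves the synthesis of diphthamide, a modified residue of an elongation factor, and DNAJC15 sits in the mitochondrial inner membrane. In male embryos DNAJC18 had -0.23 ± 0.13 (SD, n = 3), DNAJB14 -0.33 ± 0.29, DNAJC6, the clathrin-uncoating protein auxilin, 0.18 ± 0.15, DNAJC8, a protein tied to splicing, -0.62 ± 0.53, and DNAJA2, a cytosolic J protein, -0.38 ± 0.41.

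The ratio differed between the sexes for 0 of 65 genes by limma (background 0%), and 1 gene had an unadjusted p under 0.05, DNAJC24, beside 2.04% of named genes. Its ratio was 0.09 in male and -0.33 in female embryos. DNAJC10 had -0.08 and -0.85, DNAJB9 -0.02 and -0.57, DNAJA3, a mitochondrial J protein, -0.14 and 0.13, and DNAJC8 -0.62 and 0.13. Of the 2 probes of DNAJA3, 1 had -0.40 in male and 0.14 in female embryos, and the other had 0.11 and 0.12. No chaperone gene had 1 sign in all male sets and the other in all female sets, a pattern that 2.03% of named genes showed.

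The ratio of FE and SE pools differed from set to set for most chaperone genes. Limma's F test on the 12 arrays, which sets the differences between the 6 sets against the spread of the 2 arrays of a set, was passed by 41 of 65 genes (63.1%), against 35% of all features and 37.9% of all named genes. The error in this test is technical, since the paired arrays share their pools and their slide. A call therefore shows that sets differed and not that FE and SE did. For sets on different slides, differences of pools and of slides cannot be told apart. Those called were 5 of 5 CCT genes, 2 of 2 mitochondrial chaperonin genes, 7 of 10 HSP70 and HSP110 genes, 1 of 2 HSP90 genes, 2 of 6 small heat shock genes, 0 of 2 HSP-binding protein genes, 3 of 4 DNAJA, 7 of 11 DNAJB and 14 of 23 DNAJC genes. The range over the 6 sets was above 1 in log2 units for 24 of 65 genes, against 18.8% of named genes, and it was widest for DNAJC21 at 2.45. With each set left out in turn, 34 to 41 genes passed, and 26 of the 41 passed every time.

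Each slide held 2 sets: male sets 1 and 2, female sets 1 and 2, and male and female set 3. Compared within slides alone, a choice made after seeing the data, 31 of 65 genes differed, 30 of them among the 41, beside 31% of named genes. The 11 that no longer passed were CCT2, CCT4, DNAJA3, DNAJB5, DNAJB6, DNAJB11, DNAJB14, DNAJC1, DNAJC9, DNAJC15 and HSPA14 (limma adjusted p from 0.0763 to 0.347). Male set 3 and female set 3 on slide 3 differed for 23 of the 65 genes, beside 22.9% of named genes, and 19 had the higher ratio in male set 3. That split by direction is not given here for all named genes. Female sets 1 and 2 differed for 15 of the 65, beside 12.6% of named genes, and male sets 1 and 2 for 9, beside 11.6%. Without slide 3, 15 of the 65 genes passed and 14.8% of all features.

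**Figure D2:**
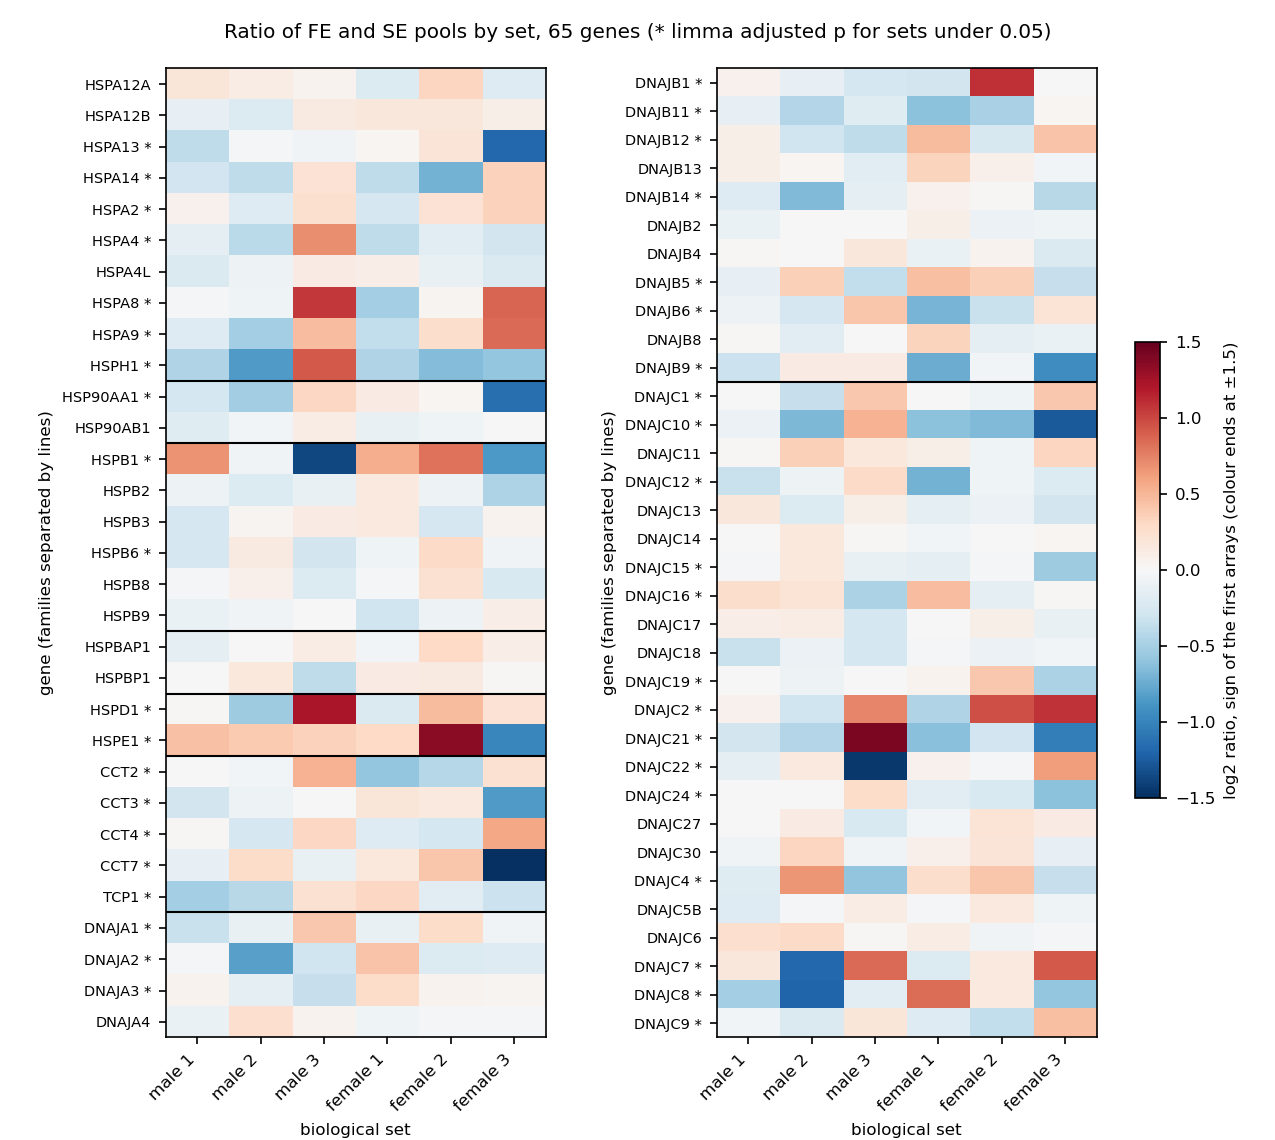
Log2 ratio of FE and SE pools (colour) for the 65 chaperone genes (rows, families separated by lines) in the 6 biological sets (columns). Asterisks mark the 41 genes with a limma adjusted p under 0.05 between sets. The strongest colours include DNAJC21 in male set 3 (1.41), HSPE1 in female set 2 (1.35) and CCT7 in female set 3 (-1.53).

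Markers of the embryonic lineages also differed between sets, and their part in the chaperone values was not tested. Of the trophectoderm list 6 of 9 measured genes passed the same test, of the epiblast list 4 of 7 and of the hypoblast list 4 of 7. Of all named genes 37.9% passed it. The mean ratio of the trophectoderm list was 0.19, 0.23 and -0.41 in the male sets, then 0.23, 0.36 and -0.03 in the female ones. That of the epiblast list was 0.12, -0.18 and -0.35 and then 0.08, 0.22 and -0.03, and that of the hypoblast list 0.08, 0.23 and -0.27 and then 0.10, 0.34 and -0.19. In male set 3 a few genes weighed on these means, and the list medians there were -0.02, -0.05 and -0.25 in the same order. KRT8 was at -1.73, KRT18 at -1.94, DPPA5 at -2.47, APOA1 at -1.30 and RBP4 at -1.32. Positive in that set were 3 of 9 trophectoderm, 2 of 7 epiblast and 3 of 7 hypoblast genes. Of 5 uterine and 5 blood cell markers measured, 0 and 0 passed, read against the same share. Their median range over the sets was 0.24 and 0.28, against 0.47 for all named genes.

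Among HSP70 genes, HSPA8 had ratios of -0.02, -0.07 and 1.05 in male sets 1, 2 and 3 and of -0.51, 0.04 and 0.87 in female sets 1, 2 and 3 (limma adjusted p = 1.79e-05 between sets). Both sets numbered 3 were high and the other 4 were near or below 0. Its 1 probe also carried an offset between array roles: the first arrays had a mean of 0.84 and the turned swap arrays -0.39. The fit held array role as a term, and male set 3 and female set 3 were the highest, and female set 1 the lowest, in both roles. HSPA9, the mitochondrial HSP70, had -0.20, -0.51 and 0.46 in the male sets, then -0.36, 0.27 and 0.85 in the female ones (limma adjusted p = 0.000327). It too was highest in the sets numbered 3. Its 1 probe also carried an offset between array roles, with a mean of 0.41 on the first arrays and -0.24 on the turned swap arrays. Without slide 3 neither passed (limma adjusted p = 0.0872 for HSPA8 and 0.0743 for HSPA9).

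The exchange factors HSPH1 and HSPA4, both of the HSP110 class, shared 1 pattern. HSPH1 had ratios of -0.45, -0.85 and 0.92 in the male sets, then -0.45, -0.65 and -0.58 in the female ones (limma adjusted p = 4.38e-06), with 0.93 and 0.91 on the 2 arrays of male set 3. HSPA4 had -0.13, -0.40 and 0.70 in the male sets, then -0.38, -0.17 and -0.28 in the female ones (limma adjusted p = 0.000164). Male set 3 was positive and the other 5 sets negative for both genes, and without it neither passed (limma adjusted p = 0.128 for HSPH1 and 0.422 for HSPA4). Of the 3 probes of HSPH1 all were highest in male set 3, at 1.43, 0.52 and 0.81, while 1 of the 4 probes of HSPA4 had 0.95 in female set 3 and the other 3 had -0.93, -0.74 and -0.41 there. HSPA4L, also of the class, ranged from -0.22 to 0.12 and did not pass.

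HSPA14, an HSP70 that works at the ribosome, had ratios from -0.70 in female set 2 to 0.34 in female set 3 (limma adjusted p = 0.000214, and 0.229 without slide 3), and its J-protein partner DNAJC2 had -0.45 in female set 1, 0.96 in female set 2 and 1.08 in female set 3 (limma adjusted p = 7.04e-06). The partners had the same sign in 4 of the 6 sets. HSPA13 was at -1.18 in female set 3 and between -0.38 and 0.19 elsewhere, and it did not pass without that set (limma adjusted p = 0.183). HSPA2, known for its role in spermatogenesis, ranged from -0.25 to 0.35 (limma adjusted p = 0.0113, and 0.0532 without female set 1). With each probe as a feature, 1 of its 2 probes passed, with -0.35 in female set 1 and 0.70 in female set 3. The other stayed between -0.18 and 0.14 and did not pass (limma adjusted p = 0.452). HSPA12A and HSPA12B, distant members of the class, did not pass.

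**Figure D3:**
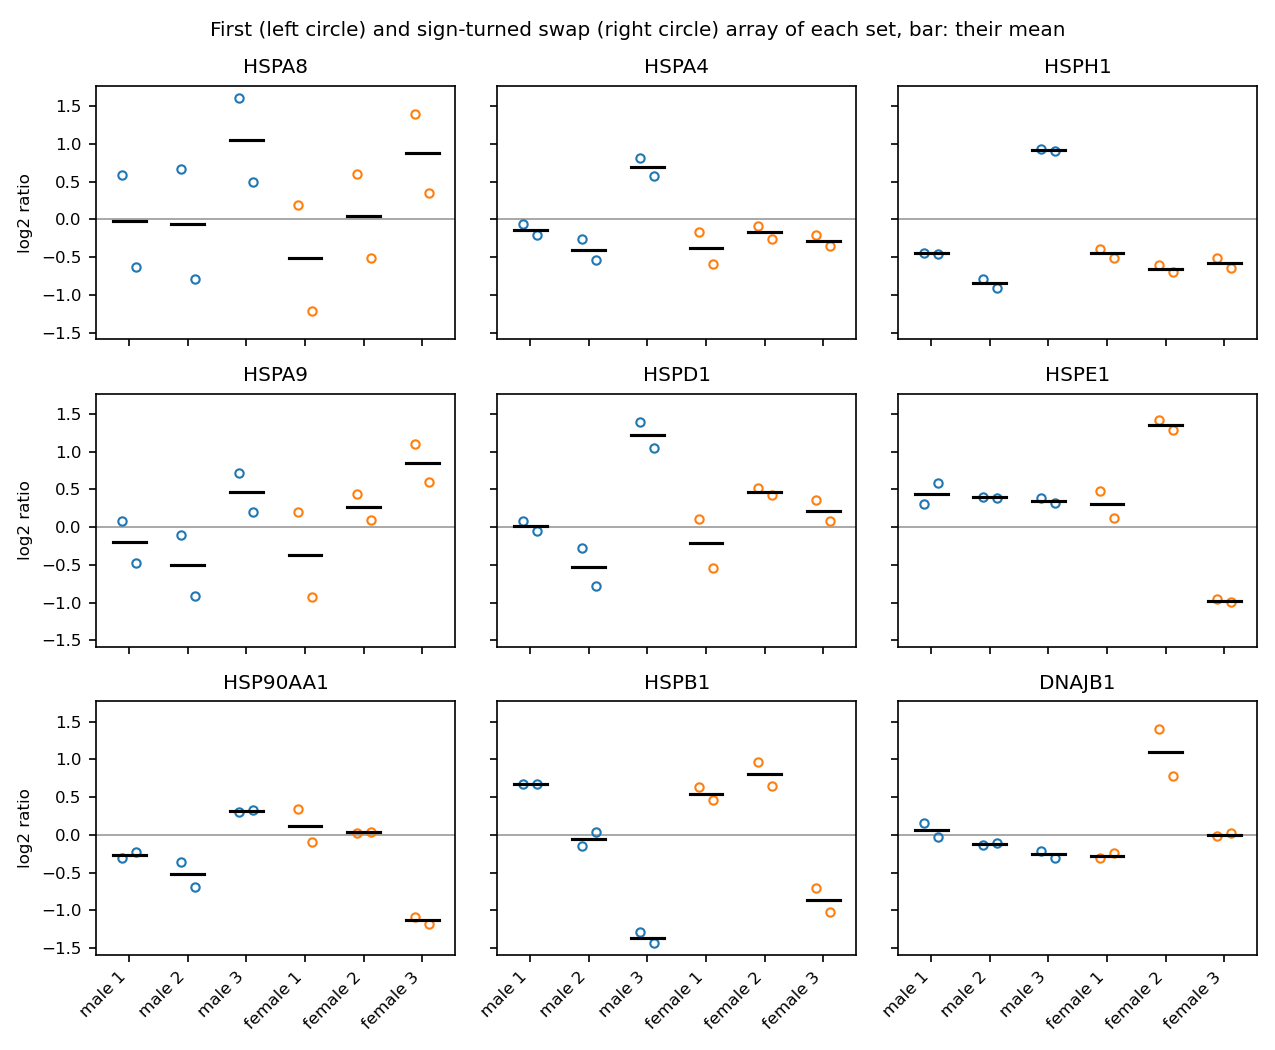
Log2 ratio on single arrays for 9 chaperone genes. The left circle of each set is the first array, the right circle the sign-turned swap array and the bar their mean (blue male, orange female). HSPH1 and HSPA4 are above 0 in male set 3 alone, HSPB1 is lowest there, and the 2 arrays of a set lie apart for HSPA8 and, less so, for HSPA9.

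Of the 2 cytosolic HSP90 genes, 1 passed between sets. HSP90AA1, the inducible form, had ratios of -0.27, -0.52 and 0.31 in the male sets, then 0.12, 0.03 and -1.13 in the female ones (limma adjusted p = 0.000104, and 0.0771 without slide 3). Female set 3 was far below the other sets, with both probes negative there at -0.78 and -1.49. HSP90AB1 stayed between -0.18 and 0.11 on its 1 probe and did not pass (limma adjusted p = 0.531). The difference between the 2 genes was not tested.

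HSPB1, which binds unfolded proteins and actin filaments, had the largest F of the 65 genes. Its ratios were 0.67, -0.06 and -1.36 in the male sets, then 0.55, 0.81 and -0.86 in the female ones (limma adjusted p = 2.32e-06). Both sets numbered 3 were low and 3 of the other 4 were high, and over the 6 sets its ratio correlated with that of HSPA8 at r = -0.88, a pair chosen after the values were seen and a description of sets that share sows and slides. The call held without any single set and without slide 3 (limma adjusted p of at most 0.0174). HSPB6, a small heat shock protein of muscle, ranged from -0.27 to 0.29 (limma adjusted p = 0.0369). Its call was lost without male set 1, 2 or 3 or female set 2, with limma adjusted p from 0.0519 to 0.152, and without slide 3 (0.117). Its ratio also carried an offset between array roles, with a mean of -0.37 on the first arrays and 0.29 on the turned swap arrays. HSPB2, HSPB3, HSPB8 and HSPB9 did not pass, and HSPB2 and HSPB9 had means of -0.13 and -0.07. HSPBP1, an exchange factor of HSP70, and HSPBAP1 had means of 0.01 and 0.06 and did not pass. The mean of HSPBP1 joins -0.50 on the first arrays and 0.52 on the turned swap arrays, an offset between array roles like that of HSPA8.

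The mitochondrial chaperonin gene HSPD1 and its co-chaperonin gene HSPE1, neighbours in the RefSeq annotation of the pig assembly Sscrofa11.1, both varied but not alike. HSPD1 had ratios of 0.02, -0.53 and 1.22 in the male sets, then -0.22, 0.47 and 0.22 in the female ones (limma adjusted p = 3.49e-05). Its 3 probes had 1.24, 1.03 and 1.40 in male set 3. HSPE1 had 0.44, 0.40 and 0.35 in the male sets, then 0.30, 1.35 and -0.97 in the female ones (limma adjusted p = 8e-06). HSPD1 was highest in male set 3, whereas HSPE1 was highest in female set 2 and negative in female set 3 alone. Over the 6 sets the 2 genes correlated at r = 0.10, given as a description of sets that share sows. Both calls held without any single set and without slide 3.

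The CCT ring holds each of its subunit types in equal number. Its 5 measured subunit genes all differed between sets in the fit of all 12 arrays. CCT5, CCT6A and CCT8 were not analysed here. CCT7 had ratios of -0.13, 0.28 and -0.11 in the male sets, then 0.16, 0.41 and -1.53 in the female ones (limma adjusted p = 2.45e-06). CCT3 had -0.27, -0.08 and 0.01 in the male sets, then 0.18, 0.14 and -0.85 in the female ones (limma adjusted p = 0.000375). Female set 3 was the lowest for both. CCT4 had 0.02, -0.26 and 0.31 and then -0.19, -0.27 and 0.58 (limma adjusted p = 0.00125), and CCT2 had 0.00, -0.04 and 0.52 and then -0.58, -0.43 and 0.23 (limma adjusted p = 0.000368). These 2 were positive in both sets numbered 3, and CCT7 was far below 0 in female set 3. In male set 3 CCT7 was at -0.11, and its 3 probes had -0.09, 0.15 and -0.38. Without slide 3 the 4 genes did not pass (limma adjusted p from 0.0574 for CCT2 to 0.509 for CCT4), and CCT3 did not pass without female set 3 alone (0.116). CCT2 and CCT4 also did not pass when sets were compared within slides (limma adjusted p = 0.331 and 0.214).

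The probes of a CCT gene did not always share a sign. All 3 probes of CCT7 were negative in female set 3, at -2.42, -1.46 and -0.69. For CCT3, 2 probes had -1.03 and -1.78 there and the third had 0.26. For TCP1, the gene of the first subunit, 2 probes had 0.10 and 0.14 in female set 3 and -0.16 and -0.24 in female set 1, while the third had -1.22 and 1.33. The gene mean of TCP1 (limma adjusted p = 0.000369) therefore joins probes that oppose each other. Of actin and tubulin genes, the substrates of the ring, 4 of 4 measured differed between sets, where 37.9% of all named genes did. In female set 3 TUBB was at -0.94, ACTB at -0.32, TUBA1B at 0.50 and TUBA1A at 0.59. A link between these genes and the CCT genes was not tested.

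**Figure D4:**
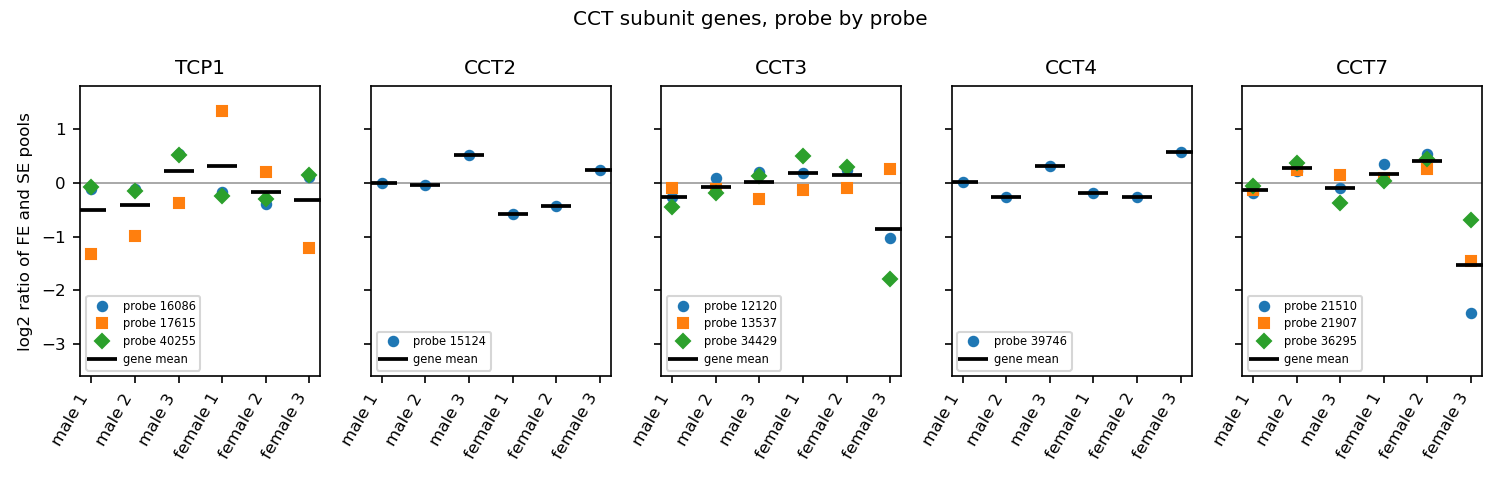
Log2 ratio of each probe (symbols) and the gene mean (bars) for the 5 measured CCT genes in the 6 sets. All 3 probes of CCT7 fall below 0 in female set 3, while 1 probe each of TCP1 and CCT3 runs against the other 2.

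Among J-protein genes of the cytosol, DNAJA1 ranged from -0.33 in male set 1 to 0.40 in male set 3 (limma adjusted p = 0.00301, and 0.0680 without slide 3), and its 6 probes were all positive in male set 3, from 0.17 to 0.65. DNAJA2 was lowest in male set 2, at -0.82, and highest in female set 1, at 0.42 (limma adjusted p = 0.00021), but its 2 probes had -0.29 and -1.35 in the first and -0.20 and 1.04 in the second. DNAJA3 had a range of 0.62 (limma adjusted p = 0.0324, and 0.272 without male set 3 or 0.116 without female set 1), and DNAJA4 had a mean of 0.02 and did not pass. The 2 probes of DNAJA3 opposed each other, with 0.76 and -0.20 in female set 1 and -0.51 and 0.61 in female set 3. DNAJB1, the J protein of HSP70 in the heat shock response, was at 1.09 in female set 2 and between -0.28 and 0.07 in the other sets (limma adjusted p = 0.000284). That call was lost without female set 2 (limma adjusted p = 0.167). DNAJB6, which keeps proteins from aggregating, had 0.41 in male set 3 and -0.69 in female set 1 (limma adjusted p = 0.0008, and 0.114 without slide 3). DNAJB9 had -0.75 in female set 1 and -0.94 in female set 3 and at most 0.13 in the male sets (limma adjusted p = 0.00013). The other DNAJB genes that passed were DNAJB5, DNAJB12, DNAJB14 and DNAJB11, with ranges of 0.82, 0.85, 0.73 and 0.64. The call of DNAJB14 was lost without male set 2 (limma adjusted p = 0.137), and that of DNAJB11 without male set 3, female set 1 or female set 3 (0.0505 to 0.156). DNAJB2, DNAJB4, DNAJB8 and DNAJB13 did not pass and had ranges of 0.18 to 0.51.

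Products of DNAJC genes share little beyond the J domain, and 14 of the 23 genes passed. DNAJC7, which binds both HSP70 and HSP90, was at -1.18 in male set 2, at 0.85 in male set 3 and at 0.92 in female set 3 (limma adjusted p = 2.57e-06). DNAJC8 was at -1.20 in male set 2 and at 0.84 in female set 1 (limma adjusted p = 4.08e-06). DNAJC21, a protein of ribosome assembly, was at 1.41 in male set 3 and -1.03 in female set 3 (limma adjusted p = 1.24e-05, and 0.408 without slide 3). DNAJC22 was at -1.45 and 0.63 in the same 2 sets (limma adjusted p = 1.29e-05, and 0.614 without slide 3). DNAJC10 differed as well (limma adjusted p = 8.18e-06). Of the others, DNAJC4 and DNAJC12 had ranges of 1.25 and 1.00, and DNAJC1, DNAJC9, DNAJC15, DNAJC16, DNAJC19 and DNAJC24 ranges of 0.69 to 0.94. The calls of DNAJC9, DNAJC15, DNAJC19 and DNAJC24 were lost without female set 3 (limma adjusted p from 0.0596 to 0.416) and that of DNAJC16 without male set 3 (0.0762). Without slide 3 the calls of DNAJB5 and DNAJC1 ended too (limma adjusted p = 0.109 and 0.321). The 9 DNAJC genes that did not pass had ranges of 0.19 to 0.45. Pairs of the 65 genes correlated over the 6 sets at r above 0.8 in 4.71% of 2080 pairs, beside 3.58% of all pairs of named genes.

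Of regulators and co-chaperones outside these families, 28 of 35 listed genes were measured. Between FE and SE embryos 0 of the 28 passed, and between sets 19 did, where 37.9% of all named genes passed. The 3 of smallest p for FE and SE were TRAP1, the mitochondrial HSP90, with a mean of 0.41 ± 0.52 (SD, n = 6 sets), HSF5 with 0.11 ± 0.08 and the HSP70 co-chaperone gene BAG6 with 0.17 ± 0.26. The largest F values belonged to FKBP4, an HSP90-binding isomerase, with a range of 1.70, GRPEL2, a mitochondrial exchange factor, with 1.93, and HSBP1, which binds the heat shock factor, with 1.72. Of prefoldin and related genes, which hand substrates to the CCT ring, 9 of 11 were measured, and 0 passed between FE and SE embryos and 7 between sets, read against the same share.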

How the data were processed

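Pools of Day 9 pig embryos were hybridised on 12 two-colour arrays, with RNA amplified before labelling, per the labels' protocols. The deposited values are log ratios per probe, read here as log2. For log base, background correction, normalization and numerator channel the entry is: not given in the sources used here. Array medians lay within 0.0108 of 0 and array SDs between 0.333 and 0.472. Ratios carry no signal level, so the depth behind a value is unknown, and precision is limited by how many arrays there were. Over probes, the deviations of first and swap arrays from their role means correlated at r = -0.728, so swap arrays were turned.

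Of 43794 probes, 25 with a missing value were left out. Probes of 1 platform symbol were averaged per gene, which gave 11905 genes, and 25659 probes without 1 symbol stayed single, for 37564 features. Symbols were updated through current gene tables for 229 genes, which added 0 chaperone genes. Linear models were fitted to the set ratios in limma 3.58.1 (R 4.3.3), with 1 mean per sex, and Benjamini-Hochberg adjustment over all features at a threshold of 0.05. The F test between sets used the 12 arrays with array role as a term. Fits were tested on simulated data. The 65 members, the gene lists, the naming rule and the tests were chosen with earlier results of these data known. Named were, per comparison, the 5 genes of smallest p, per family the 2 of largest F and the 2 of largest mean ratio, a fixed list of well-known members, 3 co-chaperones by p and 3 by F, and genes with a set far from the others. Alternatives were each probe or named genes alone, arrays scaled, robust fits, single array roles, 12 arrays with set blocks, slide and replicate blocks, sets left out, and swap arrays not turned. Promoter motifs were not analysed here.

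Male and female sets share set numbers. The correlation of same-numbered sets' deviations over features was 0.06 for set 1, 0.40 for set 2 and 0.27 for set 3, and the labels do not say that a number marks the same sows.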

Additional observations from a re-analysis of the deposited data

Results flagged for a closer look

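In 6 of 65 genes (9.23%) 1 set lay far from the other 5 by Dixon's test, where chance flags about 1 in 20. The same held for 898 of the 11905 named genes (7.54%). HSPH1 and HSPA4, the exchange factor genes of HSP70, were at 0.92 and 0.70 in male set 3, and their other 5 sets were negative. DNAJC21, a gene of ribosome assembly, was at 1.41 in the same set. HSPBP1 was at -0.38 in male set 3, the mean of -0.70 on the first and -0.06 on the turned swap array, and it did not pass between sets (limma adjusted p = 0.0862). CCT7, a subunit gene of the cytosolic chaperonin, was at -1.53 in female set 3, where its 3 probes were negative. DNAJB1 was at 1.09 in female set 2. None of the 65 genes had opposite signs in all sets of the 2 sexes.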

How the results depend on the processing

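For FE and SE, 0 of 65 genes passed in both sexes, in each sex and for their difference, with each set left out in turn (0 to 0), without slide 3, with slide as a block, with probes or named genes alone, with arrays scaled, with robust fits and with either array role alone. The exceptions were the 12 arrays with the set as a random block, with 1 gene in female embryos, and swap arrays not turned, with 24 genes in both sexes, 9 in male and 10 in female embryos. Between sets, swap arrays not turned gave 0 genes, without slide 3 gave 15, leaving out each set in turn gave 34 to 41, and the other settings 31 to 44. Across all features, 0 passed for both sexes, beside 330 with the 12 arrays in set blocks, 133 on first arrays alone, 11 on swap arrays alone, 2 with probes alone and 13640 with swap arrays not turned. Without male set 2, 1 feature passed for both sexes. With the set number as a replicate block 0 genes passed in both sexes, in each sex and for the difference, with lowest limma adjusted p of 0.900, 0.9995, 0.974 and 0.999. After subtraction of the means per sex, every male set correlated best with the female set of its own number, by 0.06 against 0.04 for set 1, and sets numbered 3 share a slide. The ratios themselves correlated best for male set 1 with female set 3 (r = 0.30). The sign of the mean over both sexes was kept by 23 of 65 genes in all alternatives other than swap arrays not turned, and scaling moved the median of all named genes by 0.00052. The direction of FE against SE was not settled. Set differences have technical error from 2 arrays each, male and female sets share sows, and single probes carry 46 of the 65 genes.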
